A study of Mus musculus with 8 samples.

Results

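The 10 genes described here, Erg, Fli1, Ets1, Elk3, Sox7, Sox17, Sox18, Tal1, Gata2 and Klf2, encode transcription factors that set up and maintain the identity of blood vessel endothelium, and they were taken by gene symbol from the 22520 genes of the deposited table. Their values came from RNA sequencing of 8 libraries, 4 labelled wild type (WT) and 4 labelled LRP1 KO, prepared from C57BL/6 mice at postnatal day 14, and the labels call every library a mix of microvesicular cells from heart, liver and lung. Per the study's methods, mice of both groups carried floxed Lrp1 alleles, and only the LRP1 KO mice carried CreER, a tamoxifen-inducible Cre recombinase driven by the promoter of Cdh5, so that the deletion of Lrp1 and the presence of Cre cannot be told apart. The cells were selected with beads coated with an antibody against PECAM-1. The comparison addresses how loss of endothelial LRP1 alters gene expression, LRP1 being an endocytic receptor related to the LDL receptor. No label says that every library came from its own animal, so p-values measure only the spread between these libraries, which may be technical in part. The study also presents liver cells apart from heart and lung cells, and whether all 8 libraries hold the same mix is not given in the sources used here.

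ETS factors bind a short GGAA core, and ERG and FLI1 keep the enhancers of junction, adhesion and angiogenic receptor genes active in endothelium, while ETS1 acts in angiogenesis and ELK3 is a ternary complex factor that can repress its targets. The SOXF proteins SOX7, SOX17 and SOX18 act partly in each other's place in arterial and lymphatic specification. TAL1 binds E-box motifs together with LMO2, LDB1 and E proteins, often beside GATA2, and both also act in blood progenitors. KLF2 is induced by laminar flow and drives an anticoagulant, quiescent endothelial program.

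The promoters of the members bear on how far they share regulatory words, so the windows that hold an ETS or a GATA word are shown. RefSeq promoter windows (GRCm38.p6, 250 bases before the annotated start) were matched for 5 of the 10 members, with 9 windows in all, for Erg, Elk3, Tal1, Gata2 and Klf2. The words searched on both strands were CGGAAG and AGGAAG for ETS factors and AGATAA and TGATAA for GATA factors, and they are in capitals in the 3 windows below, each written 5′ to 3′ on the gene's own strand. The Erg window is chr16:95459349-95459598 (minus strand), that of Elk3 is chr10:93311160-93311409 (minus strand) and that of Tal1 is chr4:115056176-115056425 (plus strand).
Erg, start 3: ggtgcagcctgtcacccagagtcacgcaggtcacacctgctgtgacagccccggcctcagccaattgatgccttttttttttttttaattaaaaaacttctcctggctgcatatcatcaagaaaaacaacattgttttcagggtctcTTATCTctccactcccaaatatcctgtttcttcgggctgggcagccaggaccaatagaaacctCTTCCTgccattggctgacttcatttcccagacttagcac
Elk3: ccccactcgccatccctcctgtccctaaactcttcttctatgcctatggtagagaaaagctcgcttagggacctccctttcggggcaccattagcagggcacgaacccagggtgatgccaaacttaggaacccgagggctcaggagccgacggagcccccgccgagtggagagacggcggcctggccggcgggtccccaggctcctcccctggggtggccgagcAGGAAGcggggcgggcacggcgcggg
Tal1, start 1: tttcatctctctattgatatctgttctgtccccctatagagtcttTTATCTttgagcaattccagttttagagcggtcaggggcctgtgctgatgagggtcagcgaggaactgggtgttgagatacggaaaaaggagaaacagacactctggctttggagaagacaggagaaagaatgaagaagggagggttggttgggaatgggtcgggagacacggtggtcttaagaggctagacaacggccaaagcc
An ETS word stood in 39.2% and a GATA word in 16.6% of all 32841 promoter windows of this length. The window of the third Erg start held both, that of Elk3 an ETS word and that of the first Tal1 start a GATA word, and a match is a description of letters, not a site. The windows of Gata2 and Klf2 and the other starts of Erg and Tal1 held neither, which says only that these letters are not there. CAGATG (E-box), ACAATG (SOX) and CACCC (KLF) were searched on both strands too and are not in capitals; they stood in 14.4%, 10.7% and 52% of all windows. The E-box word was in no member window and the SOX word only in that of the third Erg start, while the KLF word was in those of Erg starts 1 and 3, Elk3, Tal1 start 1, Gata2 start 2 and Klf2.

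The label of the libraries was checked against cell type markers. Lrp1 fell from 103 to 140 FPKM (fragment number for each kilobase of a transcript, relative to all mapped fragments) in WT to 2.79 to 7.72 in LRP1 KO. Cdh5, which encodes VE-cadherin, was present in every library, but at 8.87 to 11.2 FPKM in WT, where Col1a2, a collagen gene of fibroblasts, stood 80.9 to 105 times higher. In LRP1 KO libraries 1, 2 and 3 Cdh5 was at 47.3, 21.5 and 33.9 FPKM and Col1a2 was 12.2, 33.1 and 20.7 times higher, whereas in LRP1 KO library 4 Cdh5 was at 8.56 FPKM and Col1a2 112 times higher. Endothelial marker levels thus differed within the LRP1 KO group, and the result for each tested member is given with and without LRP1 KO library 4. That library was set apart by these values, and most members varied alongside the same markers. Adjusted p-values without it follow a choice made from the data and are given as description only. The mean of 4 Y-linked genes was 0.0280 and 0.0239 FPKM in WT library 4 and LRP1 KO library 2 and 5.40 to 16.0 in the other libraries, so 1 library of each group lacked them and each group drew on more than 1 animal. Each library summed to between 503571 and 504112 and peaked at 7793, so sequencing depth is unknown.

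**Figure D1:**
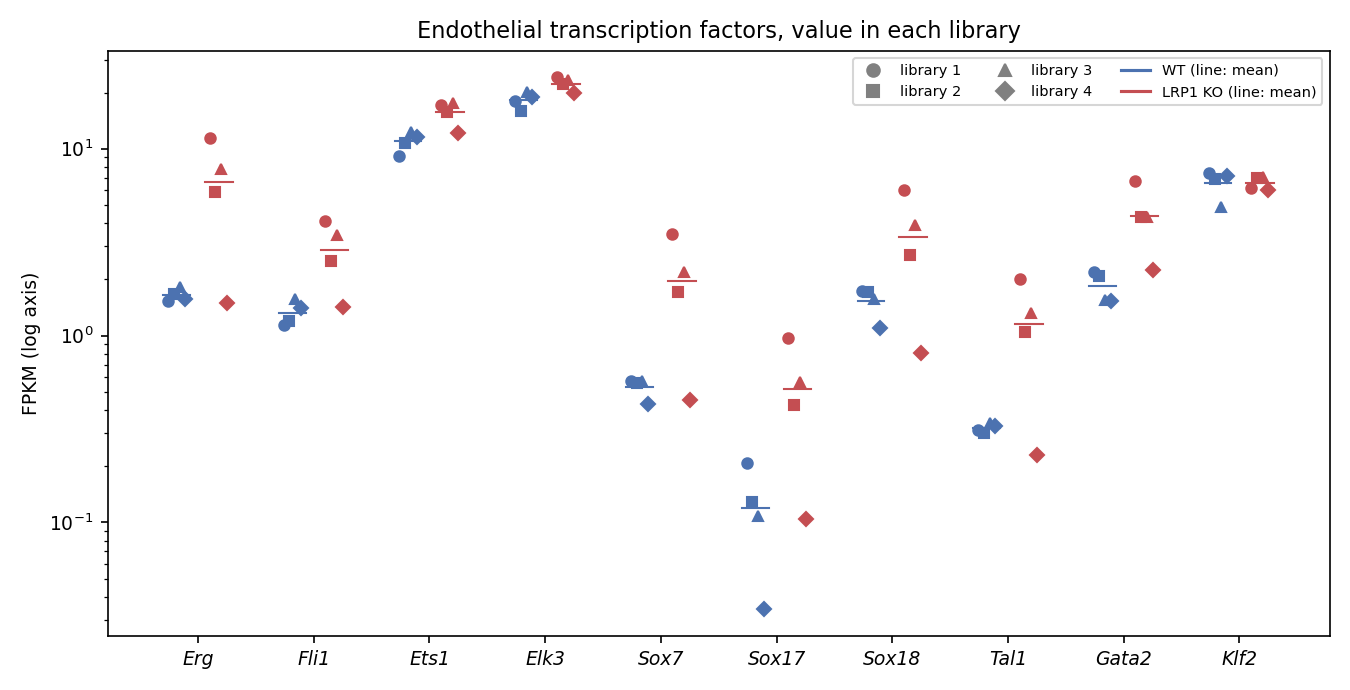
Value of each of the 10 endothelial transcription factors in each library, in FPKM on a log axis, with WT in blue and LRP1 KO in red; marker shapes give the library number and short lines the group means (n = 4 each). LRP1 KO libraries 1 to 3 lie above all WT libraries for every member except Klf2, and LRP1 KO library 4 lies lowest of its group for all 10.

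Across the 10 members, 9 had LRP1 KO libraries 1, 2 and 3 all above the highest WT library, against 17.8% of the 11389 tested genes. LRP1 KO library 4 lay within the WT range in 6 of 10 members, against 61.6% of tested genes, and below it in 3. In 8 of the 9 LRP1 KO library 4 was not above the highest WT library, which held for 8.98% of tested genes, and in 8 of 10 members the LRP1 KO libraries ranked 1, 3, 2, 4 from high to low, against 8.46%. These shares cover tested genes only, and among the 7 tested members the counts were 6 with LRP1 KO libraries 1 to 3 above WT, 4 with LRP1 KO library 4 within the WT range, 5 with LRP1 KO libraries 1 to 3 above WT and LRP1 KO library 4 not above it, and 5 with that order. The pattern was not particular to the members. Of 19 tested endothelial surface genes, described below, 15 had LRP1 KO libraries 1 to 3 above all WT libraries. In 13 of them LRP1 KO library 4 was not above the highest WT library, and 15 of the 19 had the order 1, 3, 2, 4. At an adjusted p below 0.05 (limma, all 8 libraries) 2 of the 7 members that passed the filter on low values were called, Ets1 and Gata2, both higher, beside 13.6% of tested genes called, 6.27% higher and 7.31% lower. The other 3 members (Sox7, Sox17 and Tal1) did not reach 1 FPKM in 4 libraries and were compared by the exact permutation test over libraries. Gata2 was the 1 member of 10 whose groups did not overlap, beside 19.6% of tested genes. The median log2 fold change of the 7 tested members was 0.63, beside -0.01 over all tested genes.

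The levels in WT ran from Elk3, with a mean of 18.3 FPKM, over Ets1 (10.9), Klf2 (6.60), Gata2 (1.84), Erg (1.65), Sox18 (1.53), Fli1 (1.33), Sox7 (0.532) and Tal1 (0.321) to Sox17 (0.120). Gata2, Erg, Sox18 and Fli1 were neighbours in that order whose WT ranges overlapped, while Elk3, Ets1 and Klf2 were each apart from the next. Erg moved in rank within the libraries, from between 4 and 6 of the 10 in WT to 3, 4 and 3 in LRP1 KO libraries 1, 2 and 3, and stood at 5 in LRP1 KO library 4. Klf2 stood at 3 in all WT libraries and at 5, 3, 4 and 3 in LRP1 KO libraries 1 to 4.

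Erg, an ETS factor that keeps vessels stable and junctions closed, is annotated on the minus strand at chr16:95359169-95586593 (GENCODE M21, GRCm38). It was at 1.53, 1.67, 1.82 and 1.58 FPKM across the WT libraries, in order of their number, against 11.4, 5.89, 7.76 and 1.49 across those of LRP1 KO. LRP1 KO libraries 1 to 3 were 3.57 to 6.90 times the WT mean, and LRP1 KO library 4 lay just below the lowest WT library. The means were 1.65 ± 0.129 (SD, n = 4) and 6.63 ± 4.11 FPKM, and the log2 fold change on the log2(FPKM + 1) scale, which understates changes of low values, was 1.31 ± 0.40 (SE; limma, adjusted p = 0.0594; exact permutation p = 0.143). Without LRP1 KO library 4 the log2 fold change was 1.78 ± 0.17 with an adjusted p of 0.000475.

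Fli1, the closest relative of Erg, and Ets1 are neighbours on chromosome 9, Fli1 at chr9:32422204-32542861 on the minus strand and Ets1 at chr9:32636221-32757820 on the plus strand. Fli1 was at 1.14, 1.2, 1.56 and 1.40 FPKM in WT, against 4.08, 2.51, 3.46 and 1.42 in LRP1 KO. The first 3 LRP1 KO libraries lay above all WT libraries and the last lay inside the WT range. Its log2 fold change was 0.68 ± 0.20 (limma, adjusted p = 0.0555; exact permutation p = 0.0571), and without LRP1 KO library 4 it was 0.89 ± 0.13 with an adjusted p of 0.00254.

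Ets1 was at 9.18, 10.8, 12.3 and 11.6 FPKM in WT, against 17.1, 15.8, 17.5 and 12.2 in LRP1 KO. The groups overlapped only through LRP1 KO library 4, which was just under the highest WT library. Ets1 was called higher with a log2 fold change of 0.47 ± 0.12 (limma, adjusted p = 0.0340; exact permutation p = 0.0571). The call was lost when WT library 1 (0.0755), WT library 2 (0.0906), WT library 4 (0.0569), LRP1 KO library 1 (0.0976), LRP1 KO library 2 (0.0862) or LRP1 KO library 3 (0.0983) was left out, each an adjusted p, and kept without LRP1 KO library 4 (0.00362). With the replicate numbers as a block the adjusted p was 0.0612. With the mean level of endothelial surface genes, described below, as a covariate, Ets1 was at 0.24 ± 0.13 and not called (limma, adjusted p = 0.523).

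Elk3 lies at chr10:93247414-93311135 on the minus strand and overlaps Cdk17 on the opposite strand, and whether reads were counted by strand is not given in the sources used here. It was at 18.1, 16.0, 20.2 and 18.9 FPKM in WT, against 24.1, 22.2, 23.2 and 19.8 in LRP1 KO. Again LRP1 KO library 4 was inside the WT range and the other 3 above it. The log2 fold change of 0.28 ± 0.08 was the smallest among the ETS members (limma, adjusted p = 0.0591; exact permutation p = 0.0571), and without LRP1 KO library 4 it was 0.33 ± 0.08 with an adjusted p of 0.0197.

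Of the SOXF members, Sox18, which acts in lymphatic and vascular development, lies at chr2:181669836-181671640 on the minus strand. It was at 1.74, 1.72, 1.57 and 1.10 FPKM in WT, against 6.02, 2.7, 3.92 and 0.812 in LRP1 KO. LRP1 KO libraries 1 to 3 exceeded every WT library, and LRP1 KO library 4 was 0.530 times the WT mean, the lowest of all 8. The log2 fold change was 0.63 ± 0.35 (limma, adjusted p = 0.227; exact permutation p = 0.229), and without LRP1 KO library 4 it was 1.001 ± 0.20 with an adjusted p of 0.00836.

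Sox7, at chr14:63943673-63950732 on the plus strand, was at 0.569, 0.557, 0.570 and 0.430 FPKM in WT, against 3.49, 1.71, 2.20 and 0.450 in LRP1 KO. Sox17, an arterial factor at chr1:4490931-4497354 on the minus strand, was at 0.209, 0.129, 0.108 and 0.0344 FPKM in WT, against 0.977, 0.425, 0.562 and 0.105 in LRP1 KO. Both had the first 3 LRP1 KO libraries above every WT library and the last within the WT range. The ratio of LRP1 KO library 1 to the WT mean was 6.56 for Sox7 and 8.13 for Sox17, the latter at values below 1 FPKM in every library. The differences in mean log2(FPKM + 1) were 0.84 and 0.41 (exact permutation p = 0.114 for each, n = 4 against 4).

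Tal1, at chr4:115056426-115071755 on the plus strand, was at 0.314, 0.2997, 0.341 and 0.329 FPKM in WT, against 2.01, 1.05, 1.33 and 0.230 in LRP1 KO. WT varied the least of any member, with a coefficient of variation of 5.60%, and LRP1 KO library 4 was below all WT libraries while the other 3 were 3.27 to 6.25 times the WT mean. The difference on the log2 scale was 0.63 (exact permutation p = 0.143).

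Gata2, at chr6:88193891-88207032 on the plus strand, was at 2.20, 2.08, 1.56 and 1.53 FPKM in WT, against 6.69, 4.29, 4.31 and 2.24 in LRP1 KO. Each LRP1 KO library exceeded every WT library, number 4 only just, and the exact permutation p of 0.0286 is the smallest that 4 against 4 libraries allow. The log2 fold change was 0.86 ± 0.23 (limma, adjusted p = 0.0365). That call was lost, with adjusted p-values of 0.0621, 0.0827, 0.0766 and 0.0764 without WT libraries 1 to 4 in turn and 0.0764, 0.0891 and 0.0945 without LRP1 KO libraries 1 to 3, and was kept without LRP1 KO library 4 (0.00196). With the mean level of endothelial surface genes, described below, as a covariate, Gata2 was at 0.28 ± 0.14 and not called (limma, adjusted p = 0.481).

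Klf2, at chr8:72319033-72321656 on the plus strand, was at 7.46, 6.85, 4.91 and 7.17 FPKM in WT, against 6.15, 6.93, 7.08 and 6.01 in LRP1 KO. Every LRP1 KO library lay within the WT range, and LRP1 KO library 1, the highest for 8 of 10 members, was not the highest of its group here. Its means were 6.60 ± 1.15 and 6.54 ± 0.542 FPKM, with a log2 fold change of 0.00 ± 0.12 (limma, adjusted p = 0.997; exact permutation p = 1.0) and of 0.04 ± 0.13 without LRP1 KO library 4.

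**Figure D2:**
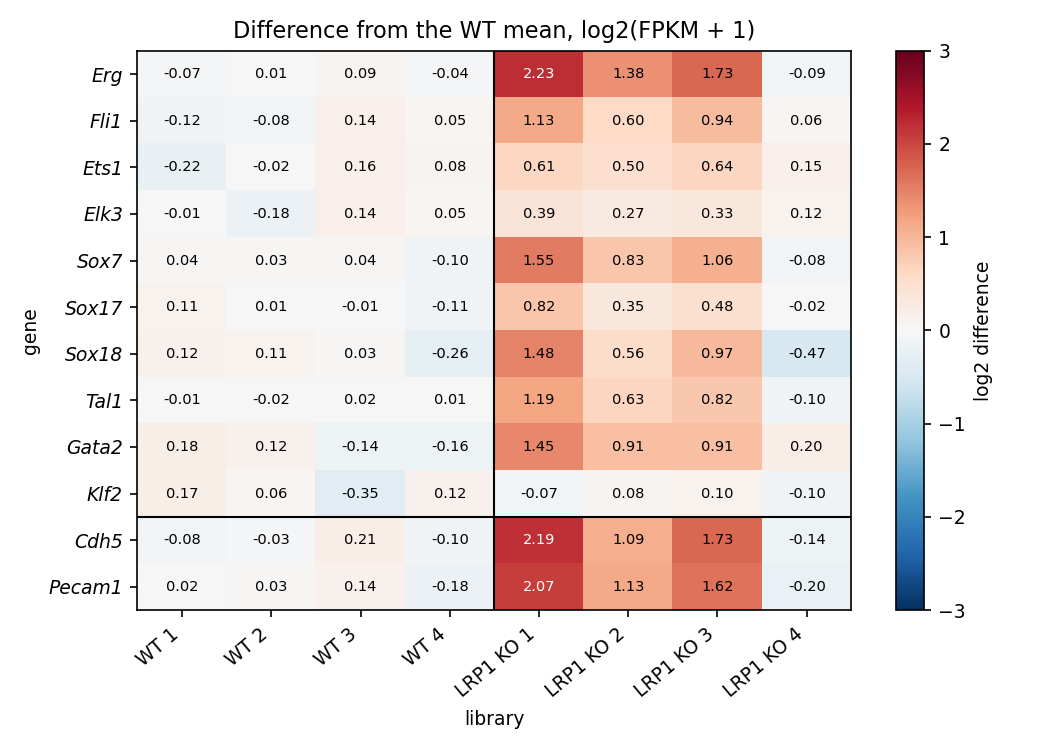
Log2(FPKM + 1) of each library minus the WT mean, for the 10 members (rows above the line) and for Cdh5 and Pecam1 (below it), with red higher and blue lower. The values of Erg, 2.23, 1.38 and 1.73 in LRP1 KO libraries 1 to 3 and -0.09 in library 4, run beside those of Cdh5, at 2.19, 1.09, 1.73 and -0.14.

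With LRP1 KO library 4 left out, 6 of the 7 tested members were called higher, all except Klf2, beside 26.5% of tested genes called and 12.6% called higher in that fit. Leaving out any other single library called none of Erg, Fli1, Elk3 and Sox18. The same 6 were called when libraries were weighted by their fit to the model, beside 26.4% of tested genes, and LRP1 KO library 4 had a weight of 0.469. The plot of fold changes shows these values side by side.

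**Figure D3:**
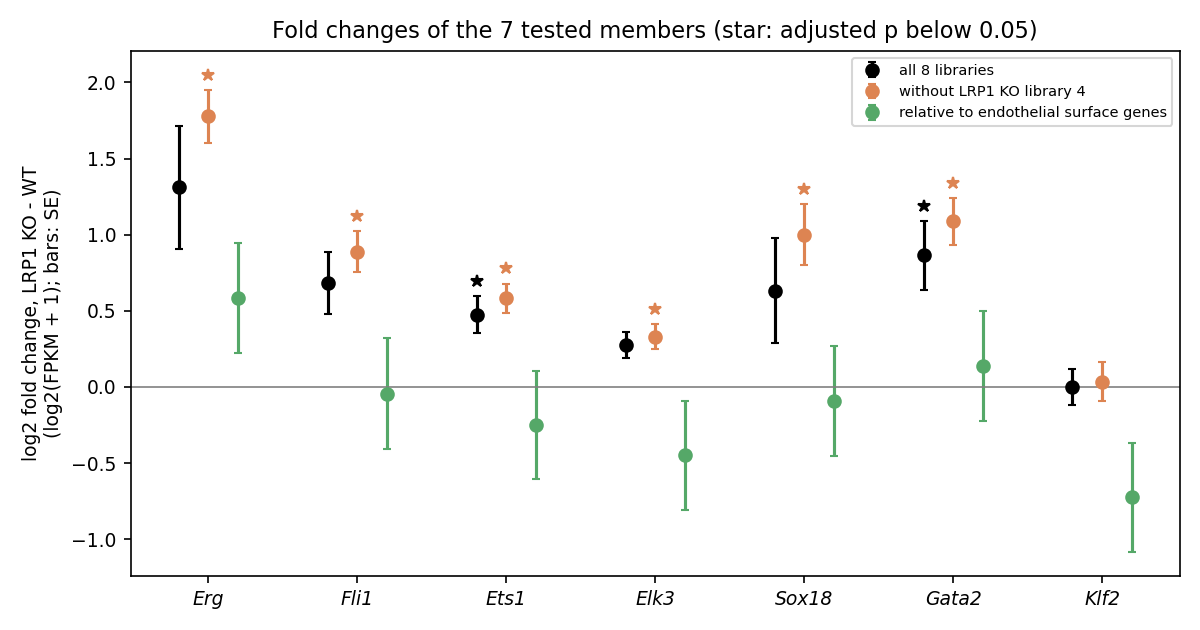
Log2 fold change (LRP1 KO minus WT) with SE for the 7 tested members, from all 8 libraries (black), without LRP1 KO library 4 (orange) and with each library shifted by its mean over the endothelial surface genes (green); stars mark an adjusted p below 0.05. Without LRP1 KO library 4 all members except Klf2 carry a star, and after the shift none does.

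Because the libraries differed in endothelial markers, the members were set against 19 endothelial surface genes (such as Pecam1, Emcn, Tie1 and Eng). The geometric mean of these genes in LRP1 KO libraries 1 to 4 was 2.98, 1.78, 2.18 and 0.879 times the WT mean, and for Cdh5 the ratios were 4.93, 2.24, 3.54 and 0.893. In bulk libraries, fewer cells of a type and less RNA per cell cannot be told apart, and what share of the members' differences goes with the number of endothelial cells was not tested.

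Erg stood at 26.3%, 29.7%, 31.2% and 31.9% of the endothelial geometric mean in WT and at 68.8%, 59.8%, 64.2% and 30.6% in LRP1 KO. The first 3 LRP1 KO libraries were above every WT library and the last was in the WT range (exact permutation p = 0.0857). Cdh5, which is not among the 19 genes, was likewise above every WT library in LRP1 KO libraries 1 to 3, at 154% to 192% in WT and 286%, 218%, 281% and 176% in LRP1 KO. Sox7 (8.70% to 9.92% in WT) was at 21.1%, 17.4%, 18.2% and 9.23% in LRP1 KO, and Tal1 (5.34% to 6.65% in WT) at 12.1%, 10.7%, 10.99% and 4.71%. Both were above all WT libraries in LRP1 KO libraries 1 to 3. Sox17 was above all WT libraries in the same 3 libraries, at 5.91%, 4.31% and 4.65% against up to 3.59%.

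Fli1, Sox18 and Gata2 lay closer to WT on this ratio. Fli1 was at 19.6% to 28.4% in WT and 24.7% to 29.1% in LRP1 KO, and Sox18 was at 22.3% to 30.6% and 16.6% to 36.4%. Gata2 was at 26.7% to 37.8% in WT and 40.5%, 43.6%, 35.7% and 45.9% in LRP1 KO, above all WT libraries in 3 (exact permutation p = 0.0857). Because the reference itself was higher in LRP1 KO libraries 1 to 3, a gene with level values falls on this ratio, and 92.2% of the 11389 tested genes were below every WT library in all 3, while 0.817% were above every WT library in all 3. Elk3 and Klf2 were below in all 3, as most tested genes were, and Ets1 in 2, with Klf2 at 37.2%, 70.3% and 58.6% against 84.1% to 145% in WT (exact permutation p = 0.0857), while LRP1 KO library 4 was at 123%, within the WT range. Ets1 and Elk3 in LRP1 KO library 4, at 249.7% and 406%, were above every WT library.

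The same ratios were taken to Pecam1 and to Cdh5 alone. Erg was at 19.2% to 23.2% of Pecam1 in WT and 31.3%, 31.9%, 29.6% and 22.2% in LRP1 KO, and at 16.2% to 17.9% of Cdh5 in WT and 24.1%, 27.4%, 22.9% and 17.4% in LRP1 KO. Sox7 and Tal1 were also above all WT libraries in LRP1 KO libraries 1 to 3 with both references. Sox17 was so in 1 library against Pecam1 and in 0 against Cdh5, so its place depends on the reference. So does that of Gata2, which was above all WT libraries in 1 LRP1 KO library and below them in 1 with either reference. The place of Fli1 turned with the reference too: it was above all WT libraries in 2 LRP1 KO libraries on the geometric mean, but below them in LRP1 KO libraries 1 to 3 with either single gene, at 11.2%, 13.6% and 13.2% of Pecam1 against 14.4% to 20.6% in WT. Below all WT libraries in LRP1 KO libraries 1 to 3 were 96.3% of tested genes against Pecam1 and 96.2% against Cdh5, among them Ets1, Elk3 and Klf2, while Fli1, Ets1 and Elk3 were above all WT libraries in LRP1 KO library 4 with both references. Sox18 was below in 3 LRP1 KO libraries against Pecam1 and in 2 against Cdh5.

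**Figure D4:**
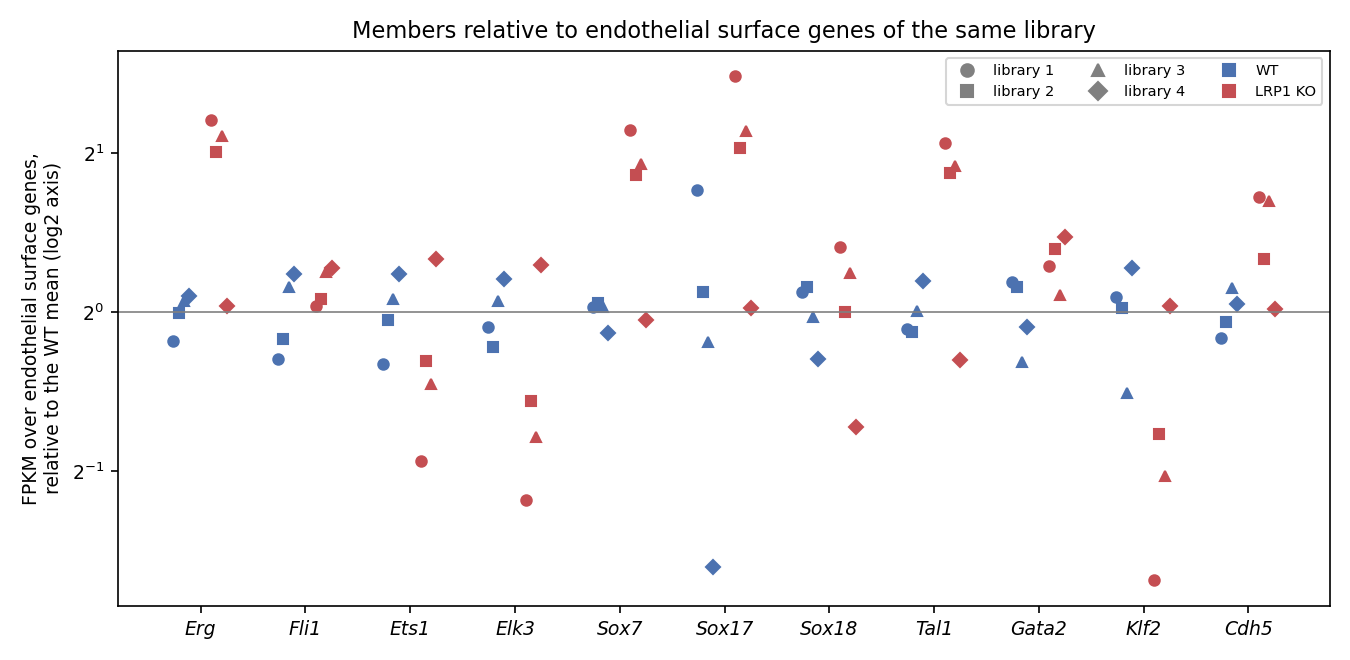
FPKM of each member divided by the geometric mean of endothelial surface genes in the same library, relative to the WT mean, on a log2 axis (WT blue, LRP1 KO red, marker shapes the library number), with Cdh5 for comparison. Erg, Sox7, Sox17 and Tal1 lie above all WT libraries in LRP1 KO libraries 1 to 3, and Ets1, Elk3 and Klf2 lie lower there than most WT libraries.

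Relatives of the members were described from lists of the other genes of each family. Of 12 tested other ETS genes, 0 were called (limma) and 3 had an unadjusted p below 0.05, beside 13.6% of all tested genes called, with a median log2 fold change of -0.01. The largest were Ets2 (-0.59, adjusted p = 0.0526), Elk4 (-0.31, adjusted p = 0.0971) and Etv5 (-0.29, adjusted p = 0.0838), and Ets2 and Etv5 were called lower without LRP1 KO library 4.

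Of 5 tested other SOX genes, Sox12, a SOXC gene, was called lower (log2 fold change -0.47 ± 0.12, adjusted p = 0.0319, limma). It was at 8.93 to 11.8 FPKM in WT and 5.92 to 8.54 in LRP1 KO. Sox4 (-0.58, adjusted p = 0.0531) and Sox13 (0.52, adjusted p = 0.0695) did not pass, but without LRP1 KO library 4 Sox4 was called lower (adjusted p = 0.00304) and Sox13 higher (adjusted p = 0.0170). Of 4 tested other GATA genes 0 were called by limma and 1 had an unadjusted p below 0.05, with Gata6 at -0.21 (adjusted p = 0.0872, and called lower without LRP1 KO library 4 at 0.00509), Gata5 at 0.15 (adjusted p = 0.386) and Gata4 at 0.11 (adjusted p = 0.354).

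Of 11 tested other KLF genes, 1 was called higher and 2 lower (limma). Klf4, which like Klf2 is induced by flow, rose from 19.1 to 24.8 FPKM in WT to 25.5 to 39.0 in LRP1 KO (log2 fold change 0.44 ± 0.13, adjusted p = 0.0474). Klf11 fell (-0.42 ± 0.09, adjusted p = 0.0187) and Klf13 fell (-0.38 ± 0.07, adjusted p = 0.0100), while Klf15 was at -0.69 with an adjusted p of 0.0503, and of 0.0125 without LRP1 KO library 4. For Klf4, Klf11 and Klf13, as for Sox12, the groups did not overlap, beside 19.6% of all tested genes.

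Among 6 tested partners of TAL1, 0 were called by limma and 4 had an unadjusted p below 0.05. Lmo2, the bridging protein of its complex, was at 2.80, 2.89, 3.19 and 2.15 FPKM in WT, against 9.87, 5.87, 5.79 and 2.44 in LRP1 KO (log2 fold change 0.79 ± 0.29, limma adjusted p = 0.0934), and without LRP1 KO library 4 it was called at 1.09 (adjusted p = 0.00331). Its LRP1 KO library 4 lay within the WT range, as for most members. Tcf4 and Runx1 were at 0.49 (adjusted p = 0.146) and 0.22 (adjusted p = 0.102).

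Of 8 tested other vascular factors, 2 were called higher. Hes1, a Notch target, rose with a log2 fold change of 0.58 ± 0.15 (limma, adjusted p = 0.0369) and Epas1, which encodes HIF-2alpha, with 0.69 ± 0.18 (adjusted p = 0.0338). Mef2c was at -0.41 (adjusted p = 0.0514, and 0.00936 without LRP1 KO library 4). Hes1 in LRP1 KO library 4 was 12.8 FPKM, within the WT range of 10.3 to 13.5.

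**Figure D5:**
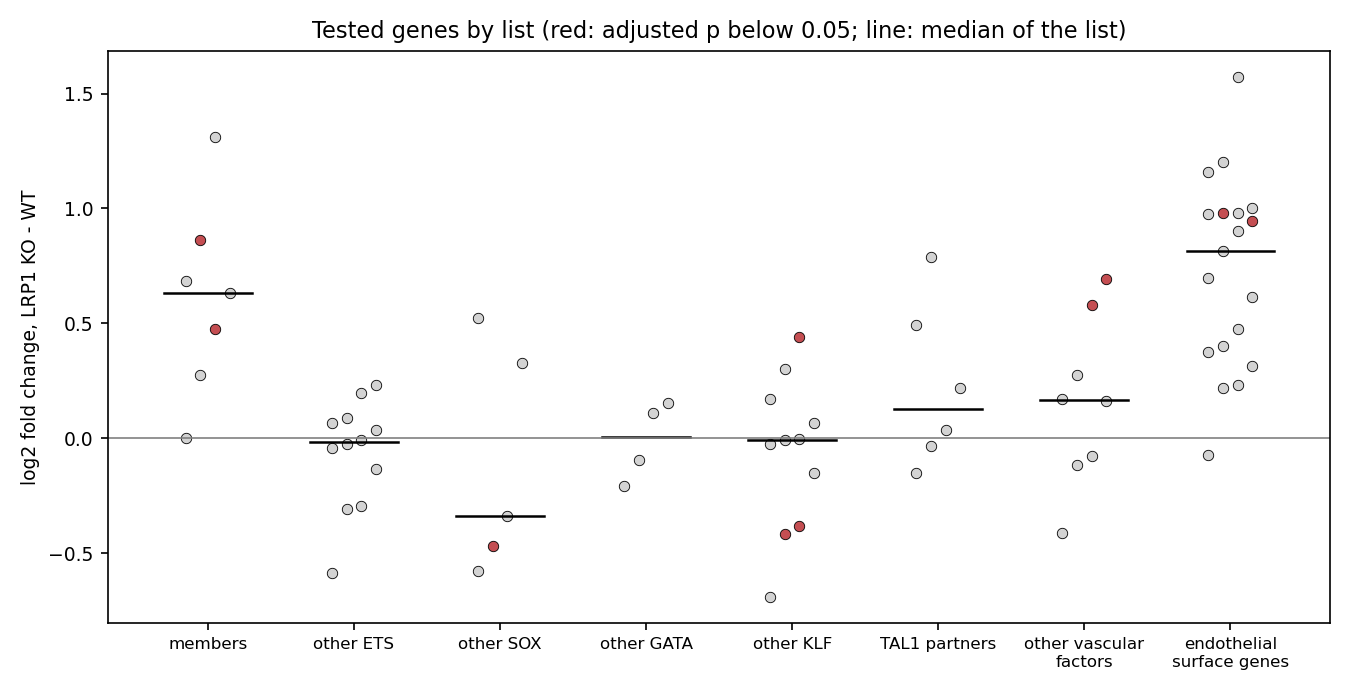
Log2 fold change (LRP1 KO minus WT, all 8 libraries) of the tested genes in each list, with genes at an adjusted p below 0.05 in red and the list median as a line. The members' median of 0.63 and that of the endothelial surface genes, 0.82, lie above those of the other ETS, SOX, GATA and KLF genes, which run from -0.34 to 0.01.

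Surface genes were described in the same way. Of 19 tested endothelial surface genes, Eng and Ecscr were called higher (limma) and 16 were called higher without LRP1 KO library 4. LRP1 KO libraries 1 to 3 were above all WT libraries in 15 of the 19, the exceptions being Flt1, Vwf, Ramp2 and Gpihbp1. The largest changes were in Emcn, Mmrn2 and Pecam1, with log2 fold changes of 1.57, 1.2 and 1.16 (adjusted p = 0.0560, 0.0596 and 0.0814). Of 11 tested genes known as ETS targets, which overlap that list, Eng alone was called, and 9 were called higher without LRP1 KO library 4. Of 3 tested SOXF targets and 6 tested genes tied to GATA2 and TAL1, 0 were called by limma, with 2 and 4 at an unadjusted p below 0.05, and 2 and 4 were called higher without LRP1 KO library 4. Among tested genes tied to KLF2, Thbd (0.49 ± 0.07, limma adjusted p = 0.00482) and Klf4 were called higher. Thbd encodes thrombomodulin, which KLF2 is known to raise, while Klf2 itself did not pass the test.

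Markers of other cells were set beside the members, since Tal1, Gata2, Fli1 and Ets1 are also used in blood cells. Of 11 tested macrophage genes 9 were called higher (limma), among them C1qb, Ctss and Lyz2 with log2 fold changes of 2.75, 2.73 and 2.60 and Mrc1, which passed the filter on low values only through the LRP1 KO libraries, and the summed level of the list was 92.0 to 118 FPKM in WT and 405, 602, 250 and 552 in LRP1 KO libraries 1 to 4, an order that differs from the 1, 3, 2, 4 of most members. Cd14, of the same macrophage list, went the other way, at 29.9 to 47.9 FPKM in WT and 19.0 to 36.9 in LRP1 KO. Its log2 fold change was -0.47 (limma, adjusted p = 0.136), and it was called lower without LRP1 KO library 4 (0.0292). The sums of 8 megakaryocyte genes were 2.01 to 2.55 in WT and 2.38 to 4.996 in LRP1 KO, with Ppbp listed at 0 in all libraries. The sums of 8 mast cell genes were 2.68 to 4.68 and 2.63 to 4.79, with Tpsb2 and Fcer1a at 0.

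The sums of 10 lymphocyte genes were 0.497 to 0.812 FPKM in WT and 1.38 to 2.02 in LRP1 KO, with Cd3e and Cd3g among those at 0 and Il7r at 0.128 to 0.320 in WT and 1.15 to 1.46 in LRP1 KO, and those of 5 erythroid genes 6.17 to 19.6 and 12.4 to 18.6, with Hba-a1 and Slc4a1 at 0. Of 12 tested fibroblast genes, Postn was called higher and Pdgfra, Dpt and Thy1 lower, and 7 were called lower without LRP1 KO library 4, with sums of 2934 to 4177 FPKM in WT and 2654 to 3869 in LRP1 KO. Of 7 tested mural cell genes 3 were called higher (Acta2, Tagln and Des), with sums of 667 to 833 in WT and 1033 to 1617 in LRP1 KO. The part of these cells in the members' values was not tested.

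Lymphatic endothelial genes, of which 4 were tested, held 0 called by limma and 1 with an unadjusted p below 0.05. Lyve1, a hyaluronan receptor, was at 9.71 to 17.9 FPKM in WT, against 40.8, 19.0, 32.8 and 8.83 in LRP1 KO, and Flt4, which encodes VEGFR3, was at 2.81 to 3.85 in WT, against 10.4, 5.29, 7.91 and 2.68. Both were above all WT libraries in LRP1 KO libraries 1 to 3 and were called higher without LRP1 KO library 4 (limma, adjusted p = 0.0116 and 0.00512). The other 2 tested genes did not share this: Pdpn, the most abundant, was at 197 to 251 FPKM in WT and 184 to 231 in LRP1 KO, and Mmrn1 was at 5.16 to 9.89 in WT and 18.6, 7.33, 15.9 and 4.25 in LRP1 KO. Of 14 tested immediate-early genes, which can respond to cell isolation, Jun (log2 fold change 0.68 ± 0.07, limma adjusted p = 0.000916) and Atf3 (0.78 ± 0.13, adjusted p = 0.00839) were called higher and Btg2 lower (-0.37 ± 0.09, adjusted p = 0.0283), and the part of this response in the members' values was not tested.

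The genes whose profile over the 8 libraries was most like the mean profile of the tested members, by the smallest root-mean-square difference in log2(FPKM + 1) minus the WT mean, were Tgfb2 (0.0721), Plxnd1 (0.0778), Snrpn (0.0855), Fgfbp3 (0.101) and Mpp1 (0.103). Tgfb2, the closest, was at 5.06, 4.50, 5.07 and 4.57 FPKM in WT, against 10.1, 7.92, 9.46 and 5.26 in LRP1 KO. Plxnd1, an endothelial semaphorin receptor, was at 3.74, 3.62, 3.47 and 3.55 FPKM in WT, against 9.45, 6.32, 7.24 and 3.16 in LRP1 KO. Tgfb2, Snrpn and Fgfbp3 were called higher (limma, adjusted p = 0.0340, 0.0471 and 0.0289), and Plxnd1 and Mpp1 were not (0.0929 and 0.0608).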

How the data were processed

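The titles of the 8 libraries gave their group and replicate number. The deposited values carry no unit and were taken to be FPKM: the submitters' processing notes name TopHat2, Cufflinks and mm10, and per the study's methods reads were handled with trimGalore, STAR, featureCounts and edgeR, and which of these the authors used for this FPKM table is not given in the sources used here. The values were quantile normalized, which removes depth, so no counting error could be given. Genes with at least 1 FPKM in 4 libraries (11389 of 22520) were fitted as log2(FPKM + 1) with limma 3.58.1 in R 4.3.3, group as the only term, with trended variance, two-sided, Benjamini-Hochberg adjusted. Single genes were compared by exact two-sided permutation over all 70 ways to choose 4 of the 8 libraries. In 3 simulated tables the fit recovered 196 to 199 of 200 genes changed by a log2 value of 2. That change was equal in all 4 LRP1 KO libraries and larger than any member's change with all 8 libraries. The recovery therefore does not give the power to detect changes of the members' size. Positions are from GENCODE M21, matched for 21740 identifiers.

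The members and gene lists were chosen with earlier results of these data known. The text names all members, Lrp1 and Cdh5, called genes and up to 3 genes with the largest fold changes per list, and the 5 genes of most similar profile; Col1a2 was added after values were seen. Some genes covered by these rules are not reported here. Alternatives were another pseudocount, other filters, rescaling, shifts and covariates, a replicate block, no variance trend, array weights and leaving out each library.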

Additional observations from a re-analysis of the deposited data

Results flagged for a closer look

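Sox7 in WT library 4, at 0.43 FPKM, lay apart from the other 3 WT libraries (0.557 to 0.570 FPKM). Its gap to the nearest of them, relative to the range of the group, was above Dixon's critical value for 4 samples. Of 20 groups of 4 libraries examined, this was the 1 that passed, and chance alone gives about 1 in 20.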

How the results depend on the processing

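Ets1 and Gata2 were also called with a pseudocount of 0.1, median-ratio rescaling, no variance trend and array weights, and Gata2 with the replicate block. Values in brackets here are log2 fold changes, or differences in mean log2(FPKM + 1) for the exact test, unless a p-value is named. Gata2 was lost without the filter on low values (0.86), with the macrophage (1.62), endothelial (0.28) or Y-linked (0.86) covariate, and Ets1 without the filter (0.47), with those covariates (0.72, 0.24 and 0.47) and with the replicate block (0.47). Array weights called Erg (1.62), Fli1 (0.80), Elk3 (0.29) and Sox18 (0.95) in addition. Shifting each library by its endothelial surface genes moved the median of all genes to -0.73, by construction, and turned Fli1 (-0.0433), Ets1 (-0.25), Elk3 (-0.45), Sox18 (-0.0938) and Klf2 (-0.72), and left Gata2 at 0.14 and Erg at 0.59 (adjusted p = 0.133) without a call; in the exact test Sox17 (-0.32) and Tal1 (-0.0919) turned too and Sox7 stayed higher (0.12, exact permutation p = 0.0286, the smallest possible), on a scale that compresses low values, whereas the FPKM ratios of all 3 were higher in LRP1 KO libraries 1 to 3. With LRP1 KO library 4 also left out, chosen after seeing the data as was the Y-linked covariate, the median was -1.02, Erg was called higher at 0.77, Ets1 (-0.42), Elk3 (-0.68) and Klf2 (-0.97) turned and were called lower, Fli1 (-0.12) and Sox18 (-0.00664) turned, and Gata2 was at 0.0797. In that fit 95.3% of the 11389 tested genes were called lower and 0.72% higher, so being called lower there does not set a gene apart. The endothelial covariate left Erg at 0.18 (adjusted p = 0.648) and turned Sox18 (-0.34) and Klf2 (-0.0267), while the macrophage covariate gave 2.85 for Erg, 1.499 for Fli1 and 2.08 for Sox18, none called. The cause of these changes was not tested.

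Leaving out each library gave log2 fold changes of 1.01 to 1.78 for Erg, 0.53 to 0.89 for Fli1, 0.40 to 0.58 for Ets1, 0.22 to 0.33 for Elk3, 0.35 to 1.001 for Sox18, 0.67 to 1.09 for Gata2 and -0.12 to 0.0571 for Klf2, which turned without WT library 3 (-0.12) and LRP1 KO libraries 2 (-0.0242) and 3 (-0.0332). It called 0 to 6 members, 512 to 3021 genes, and 133 to 339 at 2-fold. The number of members called (2 with all libraries) was 0 without the filter, after the endothelial shift and with the endothelial, macrophage and Y-linked covariates, 1 with a filter of 5 FPKM and with the block, 6 with array weights, and 4 with the shift and LRP1 KO library 4 left out. Over all genes 1547 were called, 180 with the endothelial and 10 with the macrophage covariate, 1013 with the block, 3003 with array weights and 10939 with the shift and library left out. At 2-fold 184 were called, 113 with the filter of 5 FPKM, 1473 after the shift, 98 and 10 with the endothelial and macrophage covariates, 282 with array weights and 6034 with the shift and library left out. The replicate numbers were not taken to pair the libraries, since not every pair of the same number deviated together: the correlations were 0.16, 0.14, 0.34 and -0.31. As a hint from the data that numbers may be shared in part, 3 of 4 LRP1 KO libraries matched best with their own number.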
